A study of Mus musculus with 13 samples.

Results

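The 10 genes described here are the receptors, transcription factors and feedback genes of the Hedgehog pathway, namely Gli1, Gli2, Gli3, Ptch1, Smo, Sufu, Hhip, Gas1, Cdon and Boc. They were taken by symbol from a table of 21100 genes, and all 10 were among the 14390 genes that were tested. RNA was sequenced from 13 basal cell carcinomas (BCC) of female mice, 9 of the genetically engineered model (GEM-BCC) and 4 of its transplantable descendant (Tp-BCC). GEM-BCC tumors grew intradermally in Ptch1+/- K14-CreERT2 p53fl/fl mice (K14-CreER2 in the sample labels) after 3 intraperitoneal injections of 300 µg tamoxifen and 1 X-ray dose of 4 Gy. The keratin 14 promoter confines Cre activity, and with it loss of p53, to the basal keratinocyte lineage. The 9 tumors came from 7 mice, and GEM2 shared its mouse with GEM3, as GEM7 did with GEM8. Tp-BCC tumors grew subcutaneously in recipients of the strain Ptch1+/-p53fl/fl, which carry no Cre, after 2000000 tumor cells had been placed in the right flank. All 4 Tp-BCC tumors descend from a single GEM-BCC tumor, so they stand for 1 tumor line grown in 4 hosts. All tumors and hosts come from Ptch1+/- animals, so no Ptch1 wild-type tumor stood for comparison, and the counts do not tell the alleles apart.

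In the absence of a Hedgehog ligand the receptor Patched1 holds the membrane protein Smoothened inactive, and Gli3 and Gli2 are largely processed into repressors or degraded. Ligand binding, or loss of Patched1, releases Smoothened, full-length Gli2 reaches the nucleus, and target genes are transcribed, among them Gli1, Ptch1 and Hhip, which are therefore read as a measure of pathway output. Loss of PTCH1 or activation of SMO drives most BCC of human skin, and Hhip and Ptch1 limit the pathway in normal tissue by binding the ligand.

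Depth was 28075317 to 32629102 expected counts in GEM-BCC libraries and 15388027 to 17494912 in Tp-BCC libraries, and the lowest value of any member was 84 counts, for Gli3 in TP4. All GEM-BCC libraries carry 1 batch label and all Tp-BCC libraries another, so batch and model cannot be told apart. In 3 libraries, GEM1, TP2 and TP4, values rose with the GC content of the transcript relative to the mean of all tumors (Spearman's rho across genes 0.361, 0.605 and 0.607), whereas rho lay between -0.484 and -0.142 in the other libraries. The tests of genes and of ratios between the models were therefore also made after this trend had been removed from every library, and without the 3 libraries. Correlations over GEM-BCC mice were repeated after the removal and without the mouse of GEM1, and neighbouring genes were compared again only after the removal. The order of levels, the differences within a mouse and the likeness lists were not repeated in either way. The tumors were bulk tissue, in which fewer cells of a type and less RNA per cell cannot be told apart.

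Between the models, 3 of the 10 members rose in Tp-BCC tumors and none fell, with edgeR's quasi-likelihood test at an adjusted p-value under 0.05. Gli2, Sufu and Gas1 were those that rose. Among all genes tested, 11.1% rose and 8.35% fell. A log2 fold change above 2 in either direction together with that p-value was met by 0 members, against 5.57% of all genes, although 7 members had an unadjusted p under 0.05 in edgeR. DESeq2 put 4 members past the test, adding Ptch1, which was lower, and it put 26% of all genes past, against 19.4% with edgeR. After the GC trend had been removed, limma found 4 members higher (Gli2, Sufu, Hhip and Gas1) and Ptch1 lower, against 15.1% and 14.8% of all genes. When GEM1, TP2 and TP4 were left out together, 0 members passed and only Gli2 had an unadjusted p under 0.05, with 2 Tp-BCC tumors remaining and 11% of all genes past the test. The median log2 fold change of the members was 0.40, against -0.03 over all genes tested.

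**Figure D1:**
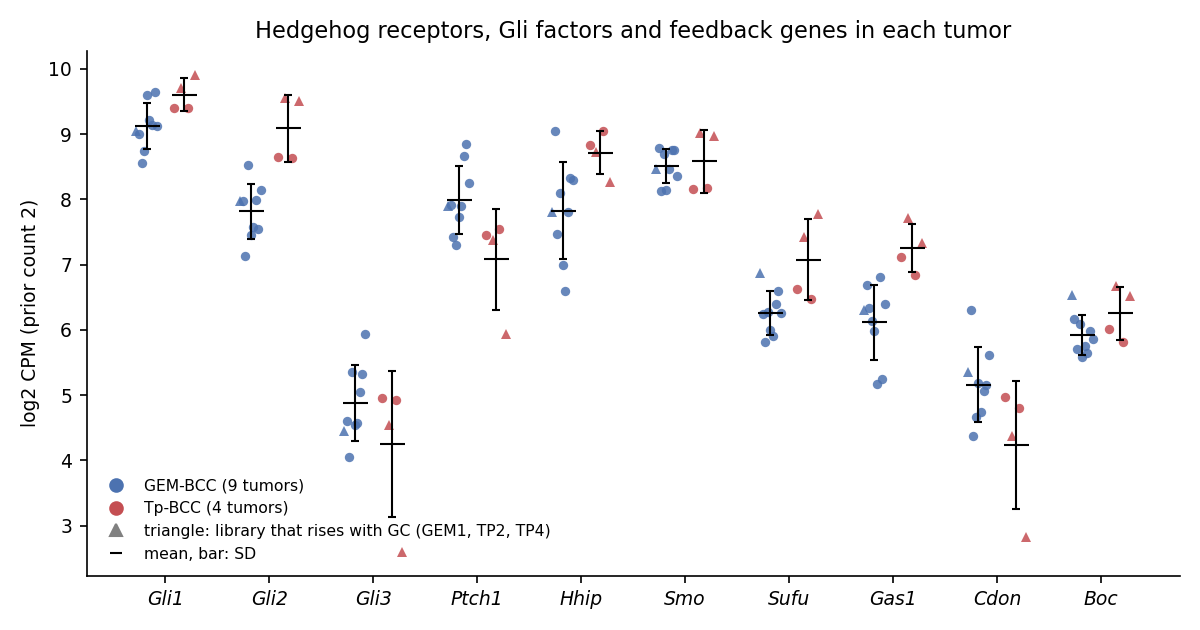
Expression of the 10 members in each tumor, as log2 CPM, with 9 GEM-BCC tumors in blue and 4 Tp-BCC tumors in red; black dashes are means and bars are SD. All Tp-BCC tumors lie above all GEM-BCC tumors for Gli2 and for Gas1, and TP4 lies lowest for Gli3, Ptch1 and Cdon.

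Gli1, the activator and target gene by which pathway output is usually judged, was the highest member in both models. In CPM, counts scaled to a common library size, it ranged from 376 in GEM3 through a median of 562 to 804 in GEM8, and in Tp-BCC tumors it was 674, 840, 677 and 965 in TP1 to TP4. The Tp-BCC values all lay above the GEM-BCC median, yet the models overlapped. Gli1 averaged 571 ± 141 CPM (SD, n = 9) in GEM-BCC and 789 ± 141 CPM (SD, n = 4) in Tp-BCC. The log2 fold change was 0.46 (SE 0.22, 95% confidence interval 0.01 to 0.92) with an edgeR adjusted p of 0.139, and it was 0.19 (limma adjusted p = 0.508) after removal of the GC trend. A difference in Gli1 was thus not resolved beyond this interval.

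Gli2, the main activator, whose protein is stabilised by the signal, showed the clearest difference. It ranged from 140 in GEM3 through a median of 250 to 370 CPM in GEM4, and reached 400, 749, 395 and 727 CPM in TP1 to TP4. The lowest Tp-BCC tumor lay above the highest GEM-BCC tumor, an arrangement seen in 5.5% of all genes tested (9.95% had no overlap in either direction). Gli2 rose 2.42-fold (log2 fold change 1.28, SE 0.26) with an edgeR adjusted p of 0.00313. Gli2 remained past the test in each of the 13 fits that left out 1 tumor (adjusted p 0.00183 to 0.022). TP2 and TP4 held the higher values, and after removal of the GC trend the 4 Tp-BCC tumors drew together to 464, 526, 469 and 429 CPM, against 152 to 418 CPM in GEM-BCC tumors. The difference was then 0.97 (limma adjusted p = 0.00587). Without GEM1, TP2 and TP4 it was 0.78 (SE 0.29), and the edgeR adjusted p of 0.103 no longer passed.

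Gli3, the main source of the repressor form, was expressed at far lower levels. It ranged from 16.5 through a median of 24.3 to 60.8 CPM in GEM-BCC and was 30.8, 23.4, 30.2 and 6.0 CPM in TP1 to TP4. TP1 to TP3 fell inside the GEM-BCC range and TP4 alone lay below it. Its log2 fold change was -0.48 (SE 0.40, 95% confidence interval -1.33 to 0.37) with an edgeR adjusted p of 0.413, which moved to -0.20 when TP4 was left out.

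Ptch1 encodes the receptor that restrains Smoothened and is at the same time a target of the Gli factors. Its 250 bases upstream of the transcription start, from RefSeq (GRCm38.p6, chr13:63565736-63565985, minus strand), are shown beside those of Hhip (chr8:80058009-80058258, minus strand), because both are Gli targets and their ratio differed between the models (Gli1, also a target, had no window). Both read 5′ to 3′ on the gene's strand. Capitals mark 9 bases with the most matches to the Gli consensus GACCACCCA on either strand. Where stretches tie, as in Ptch1, only the first one found is marked.
Ptch1: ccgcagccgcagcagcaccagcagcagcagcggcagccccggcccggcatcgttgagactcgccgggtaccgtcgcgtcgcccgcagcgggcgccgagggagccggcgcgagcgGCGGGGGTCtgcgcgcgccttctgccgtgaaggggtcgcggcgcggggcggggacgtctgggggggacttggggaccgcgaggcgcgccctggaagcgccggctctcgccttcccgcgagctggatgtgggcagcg
Hhip: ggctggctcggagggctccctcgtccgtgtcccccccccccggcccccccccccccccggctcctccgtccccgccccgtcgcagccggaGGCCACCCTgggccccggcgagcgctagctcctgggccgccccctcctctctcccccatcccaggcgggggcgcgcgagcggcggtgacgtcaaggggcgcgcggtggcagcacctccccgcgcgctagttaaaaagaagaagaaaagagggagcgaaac
Both windows are rich in G and C, at 78.4% for Ptch1 and 76.0% for Hhip. The best stretch matched 6 of 9 bases in Ptch1 (on the opposite strand) and 7 of 9 in Hhip. Of the 8 members with a window, 3 matched at least 7 bases (Gli2, Hhip and Smo), 0 matched 8 or 9, and among 32851 windows of this length 51.801% matched at least 7, 5.793% at least 8 and 0.225% all 9. The counts of both genes come from transcripts and not from these windows, and the absence of a full match says only that those letters are not in this stretch.

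Expression of Ptch1 ranged from 158 in GEM4 through a median of 238 to 462 CPM in GEM8, and was 176, 166, 187 and 61.0 CPM in TP1 to TP4. All 4 Tp-BCC tumors lay below the GEM-BCC median, but TP1, TP2 and TP3 were within the GEM-BCC range and TP4 was far below it. A log2 fold change of -0.87 (SE 0.34) did not pass with edgeR (adjusted p = 0.0809), whereas it passed with DESeq2 (-0.89, adjusted p = 0.0345) and after removal of the GC trend (-0.84, limma adjusted p = 0.0424). It was -0.65 without TP4 and -0.59 (edgeR adjusted p = 0.331) without GEM1, TP2 and TP4.

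Hhip, a membrane-anchored decoy that binds the ligand and is induced by Gli factors, was measured in the opposite direction. It ranged from 96.0 in GEM6 through a median of 225 to 529 CPM in GEM2, and was 456, 421, 529 and 306 CPM in TP1 to TP4. The Tp-BCC values lay in the upper part of the GEM-BCC range. The log2 fold change was 0.75 (SE 0.34, edgeR adjusted p = 0.133), and it reached 0.96 (adjusted p = 0.0387) without GEM2, the only GEM-BCC tumor above TP2. Removal of the GC trend gave 1.44 (limma adjusted p = 0.0149). The transcript of Hhip has the lowest GC content of the members (41.2%), and the adjustment spread the Tp-BCC values from 337 in TP3 to 1020 CPM in TP2, so the size of the difference depends on how that trend is treated.

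Smo, the signal transducer, and Sufu, which binds Gli proteins and keeps them in the cytoplasm, bracket the inner steps of the pathway. Smo varied least among GEM-BCC tumors (278 to 442 CPM, median 353) and was 287, 518, 287 and 502 CPM in TP1 to TP4. TP1 and TP3 were near the bottom of the GEM-BCC range and TP2 and TP4 above its top. Its log2 fold change of 0.12 (95% confidence interval -0.35 to 0.58, edgeR adjusted p = 0.738) became -0.22 after removal of the GC trend, so no direction can be given for Smo.

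Sufu ranged from 56.1 through a median of 76.8 to 117 CPM in GEM-BCC, with GEM1 highest, and was 98.6, 171, 88.9 and 218 CPM in TP1 to TP4. Of the GEM-BCC tumors, GEM1 and GEM8 reached into the Tp-BCC range. Sufu rose 1.84-fold, a log2 fold change of 0.88 (SE 0.25, edgeR adjusted p = 0.0229). It was 0.76 (adjusted p = 0.0853) without TP2 and 0.56 (adjusted p = 0.122) without TP4, so the call rested on these libraries, and without GEM1, TP2 and TP4 it was 0.35 (adjusted p = 0.245). After removal of the GC trend the difference was 0.56 (limma adjusted p = 0.0188).

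Gas1, Cdon and Boc encode co-receptors that help to present the ligand to Patched1. Gas1 ranged from 36.0 in GEM6 through a median of 79.1 to 112 CPM in GEM7, and was 139, 210, 114 and 161 CPM in TP1 to TP4. Every Tp-BCC tumor lay above every GEM-BCC tumor, an arrangement seen in 5.5% of all genes tested, although TP3 exceeded GEM7 only slightly. Gas1 rose 2.11-fold, a log2 fold change of 1.08 (SE 0.28, edgeR adjusted p = 0.0144), and 12 of the 13 fits that left out 1 tumor retained it. Without TP2 it was 0.87 (adjusted p = 0.0763), without GEM1, TP2 and TP4 0.79 (adjusted p = 0.176), and after removal of the GC trend 0.84 (limma adjusted p = 0.0464). The models overlapped after that removal, with TP4 at 93 CPM, below GEM7 (123), GEM2 (108) and GEM9 (101).

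Cdon ranged from 20.6 through a median of 35.4 to 79.1 CPM in GEM-BCC and was 31.2, 20.6, 27.8 and 7.0 CPM in TP1 to TP4. All Tp-BCC tumors were below the GEM-BCC median, and only TP4 lay outside the range. Its log2 fold change of -0.83 (SE 0.39, edgeR adjusted p = 0.144) was -0.56 without TP4. Boc ranged from 47.7 through a median of 58.0 to 92.3 CPM in GEM-BCC and was 64.2, 102, 56.1 and 91.5 CPM in TP1 to TP4. Its difference was 0.34 (SE 0.22, edgeR adjusted p = 0.278) and 0.07 after removal of the GC trend. Of the 3 co-receptors, then, Gas1 alone passed, and whether its change differs from those of Cdon and Boc was not tested.

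**Figure D2:**
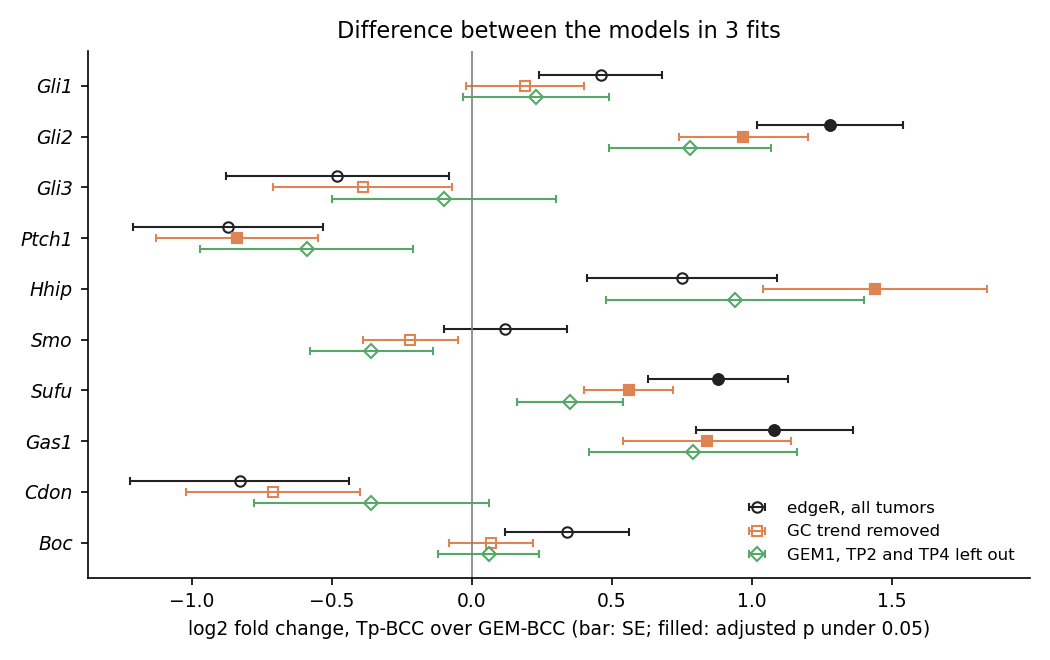
Log2 fold change of each member, Tp-BCC over GEM-BCC, in edgeR with all tumors (black), after removal of the GC trend (orange) and in edgeR without GEM1, TP2 and TP4 (green); bars are SE and filled symbols have an adjusted p under 0.05. Gli1, Gli2, Hhip, Sufu, Gas1 and Boc are above 0 in all 3 fits, and Gli3, Ptch1 and Cdon are below 0. Smo changes sign, and no member is filled in the fit without the 3 libraries.

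The spread within Tp-BCC tumors followed base composition. In each of the 6 members with a transcript GC content over 55% (Gli1, Gli2, Smo, Sufu, Gas1 and Boc), TP2 and TP4 both exceeded TP1 and TP3. In each of the 4 members under 51% (Gli3, Ptch1, Cdon and Hhip), TP2 and TP4 were both below TP1 and TP3. TP2 and TP4 had been set apart by their rise with GC content over all genes, and this split of the members largely restates that rise. The cutoffs of 55% and 51% bound a gap among these 10 genes. The share of all genes that split in this way was not counted. The difference between the pairs ran from -1.36 on the log2 scale for Gli3 to 1.05 for Sufu, and across the 10 genes, which share the same 4 libraries, it followed GC content with r = 0.759 and rho = 0.539. Removal of the trend took the median size of the difference from 0.84 to 0.42 and left the genes with r = -0.305, with Hhip displaced to 1.31 in the other direction. Ptch1 changed little (-0.85 before and -0.75 after), so its low value in TP4 was not removed by the adjustment. What part GC content had in these differences was not tested further.

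**Figure D3:**
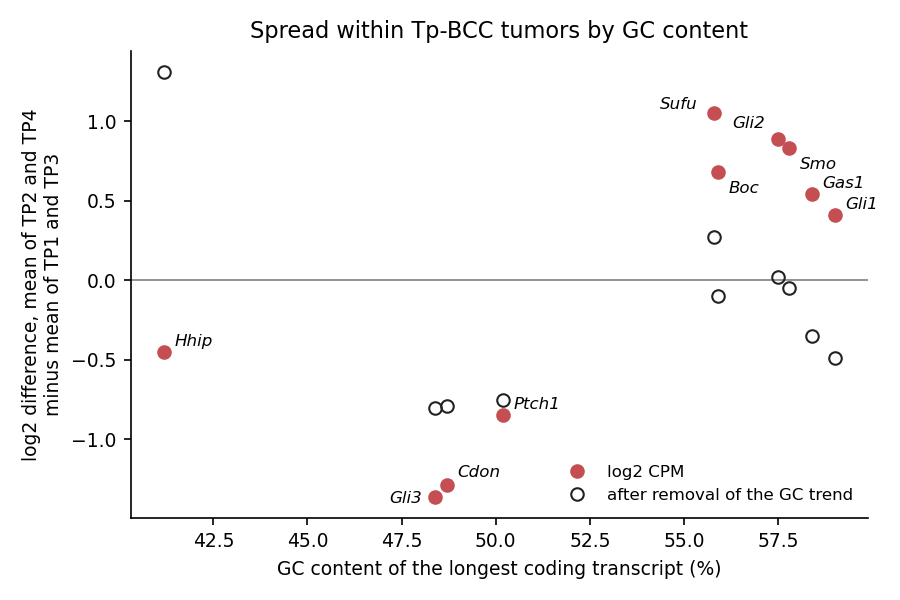
Difference in log2 CPM between TP2 and TP4 and the other 2 Tp-BCC tumors (vertical axis) against the GC content of the longest coding transcript (horizontal axis), for each of the 10 members, before (red) and after (open) removal of the GC trend. Before removal the 6 GC-rich genes are above 0 and the 4 others below 0.

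Ratios of 1 member to another within a tumor do not depend on how libraries are scaled, though they keep any effect of GC content. 5 such ratios were compared with an exact 2-sided permutation test over all splits of the tumors into groups of 9 and 4, and p-values were adjusted over the 5. Those splits treat tumors of the same mouse as separate. The ratios were chosen with earlier results of these data known, so their p-values are descriptions. With means per mouse, the exact permutation adjusted p was 0.0101 for each of Gli2 to Gli3, Hhip to Ptch1 and Gli1 to Ptch1. The ratio of Gli2 to Gli3, the main activator to the main repressor, lay between 4.68 and 11.5 in GEM-BCC tumors and was 13, 32, 13.1 and 121 in TP1 to TP4. The ranges did not overlap. The mean difference was 1.88 on the log2 scale (exact permutation p = 0.0014, the smallest this design allows, adjusted p = 0.0035), and it was 1.19 without TP4, which is the tumor with the lowest Gli3, and 0.83 (adjusted p = 0.111) without GEM1, TP2 and TP4. These are RNA ratios and hold no information on processing of the Gli proteins.

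Hhip exceeded Ptch1 in every Tp-BCC tumor, with ratios of 2.60, 2.53, 2.83 and 5.03 in TP1 to TP4, whereas in GEM-BCC tumors the ratio lay between 0.402 and 2.20. The difference of 1.80 on the log2 scale had an exact permutation p of 0.0014 (adjusted p = 0.0035) and stayed at 1.57 without TP4 and at 1.61 without GEM1, TP2 and TP4. It is the ratio whose value moved least when those 3 libraries were left out, although with 45 splits left its exact permutation p of 0.0222 was adjusted to 0.111. With the GC trend removed, however, the difference was 2.29. The Tp-BCC log2 ratios then ran from 0.84 in TP3 to 3.27 in TP4, and the highest GEM-BCC tumor, GEM2, was at 0.73. The size of this difference therefore also depends on how that trend is treated.

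Gli1 relative to Ptch1, both targets of the pathway, was 3.84, 5.05, 3.62 and 15.8 in TP1 to TP4 against 1.38 to 3.64 in GEM-BCC tumors. TP3 fell just below GEM5, and the other Tp-BCC tumors lay above all GEM-BCC tumors. The difference was 1.40 on the log2 scale (exact permutation p = 0.0028, adjusted p = 0.00466), 0.92 without TP4, and 0.77 (adjusted p = 0.111) without GEM1, TP2 and TP4. Ptch1 relative to Smo was 0.612, 0.321, 0.650 and 0.121 in TP1 to TP4 and 0.378 to 1.07 in GEM-BCC tumors. Its difference of -0.99 (exact permutation p = 0.0266, adjusted p = 0.0332) fell to -0.48 (adjusted p = 0.199) without TP4, and its adjusted p was 0.0966 without TP2 and 0.053 without GEM5. The call was also lost with means per mouse (adjusted p = 0.0606), after removal of the GC trend (-0.62, adjusted p = 0.0752) and without GEM1, TP2 and TP4 (-0.16, adjusted p = 0.822). Sufu relative to Gli1 differed by 0.33 on the log2 scale (exact permutation p = 0.217).

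**Figure D4:**
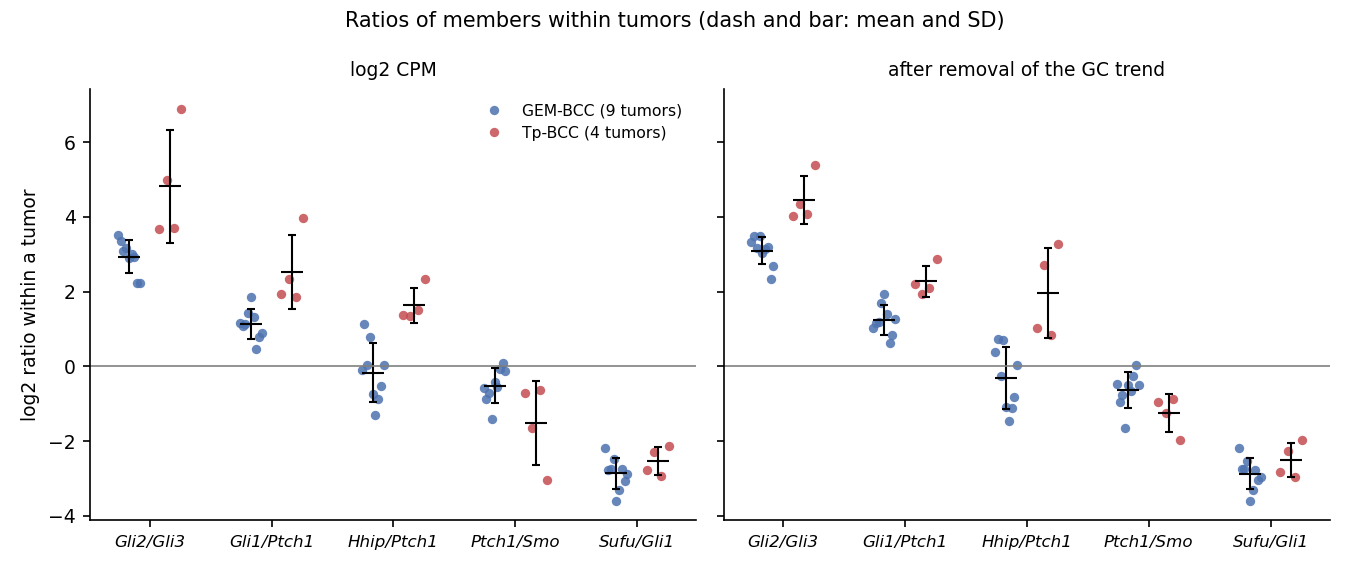
Log2 ratio of 5 pairs of members within each tumor, before (left) and after (right) removal of the GC trend; GEM-BCC is blue and Tp-BCC red, and dashes with bars are mean and SD. For Gli2 to Gli3 and for Hhip to Ptch1 the 4 Tp-BCC tumors are above the 9 GEM-BCC tumors in both panels.

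Per kilobase of transcript the order of the levels was much the same in both models. In GEM-BCC, Gli1 (141 CPM per kilobase) stood above Smo (97.4), which stood above Gli2 (35.3), Ptch1 (35.0), Hhip (28.0), Gas1 (25.0) and Sufu (17.4). Neighbours in this last group of 5 differed by less than the spread of their difference between tumors. Boc (13.9), Cdon (5.13) and Gli3 (3.87) followed, and the last 2 were not separated. In Tp-BCC, Gli1 (194) again led Smo (105), and Gli2 (85.5) came next. Ptch1 stood 4th in GEM-BCC and 7th in Tp-BCC, where Gas1 (52.7), Hhip (47.2), Sufu (31.9), Ptch1 (19.1) and Boc (17.6) came in order and none of these 5 was separated from the next within the group.

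Among GEM-BCC tumors the members varied about as much as other genes, with a median SD of 0.47 on the log2 scale against 0.44 for all genes tested. Tumors from the same mouse could differ widely. GEM2 exceeded GEM3 by 3.83-fold in Cdon and by 2.99-fold in Hhip, and GEM7 exceeded GEM8 by 2.98-fold in Gas1, and for Cdon and Smo the difference between GEM2 and GEM3 was the whole range of the 9 tumors. In contrast, Smo was equal in GEM7 and GEM8.

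The members did not move together across GEM-BCC tumors to a degree that could be established. Over 7 mice, with the tumors of a mouse averaged, 0 of 45 pairs had an adjusted p under 0.05 in an exact permutation test of Pearson's r and 2 had an unadjusted p under 0.05. Gli1 and Ptch1, the targets most often read together, had r = 0.538 and Spearman's rho = 0.607 (exact permutation p = 0.213 and 0.167, adjusted p = 0.76), with r = 0.839 without the 2 mice farthest from the median Gli1. The pairs with the largest r were Hhip and Gas1 (r = 0.86, rho = 0.857, exact permutation p = 0.0103 and 0.0238, adjusted p = 0.464), Sufu and Boc (r = 0.809, rho = 0.714, exact permutation p = 0.0327 and 0.0881, adjusted p = 0.737) and Gli2 and Gli3 (r = 0.686, rho = 0.679, exact permutation p = 0.0891 and 0.11, adjusted p = 0.76). In all 3, r dropped to 0.395, 0.312 and 0.22 without the 2 mice farthest from the median of the first gene. Leaving out the extremes also narrows the range, so this cannot show that a pair rested on those mice. With the mouse of GEM1 left out, r was 0.874, 0.394 and 0.784. With the GC trend removed it was 0.773, 0.685 and 0.815, and the largest r was that of Hhip and Boc (0.822). In that setting 5 pairs had an unadjusted exact permutation p under 0.05 and 0 an adjusted one, so the order of the pairs depends on how the trend is treated.

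The members were also compared with the mean level of fibroblast markers and of basal keratinocyte markers, since bulk tumors hold both stroma and tumor cells. Of 20 relations, 3 had an unadjusted p under 0.05 and 0 an adjusted one. Gli2 followed the basal keratinocyte markers with r = 0.943 and rho = 0.857 (exact permutation p = 0.00417 and 0.0238, adjusted p = 0.0833), and r was 0.948 without the 2 mice farthest from the median. The adjusted p was 0.0198 after removal of the GC trend, and 0.0146 (permutation) with the 9 tumors taken as separate samples, but 0.0595 with DESeq2 size factors and 0.222 with the mouse of GEM1 left out. With the fibroblast markers, Smo had r = -0.828 and rho = -0.857 (exact permutation p = 0.0236 and 0.0238, adjusted p = 0.157), and Gli2 had r = -0.82 and rho = -0.679 (exact permutation p = 0.0234 and 0.11, adjusted p = 0.157). Without the 2 farthest mice, r was -0.916 and -0.788.

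**Figure D5:**
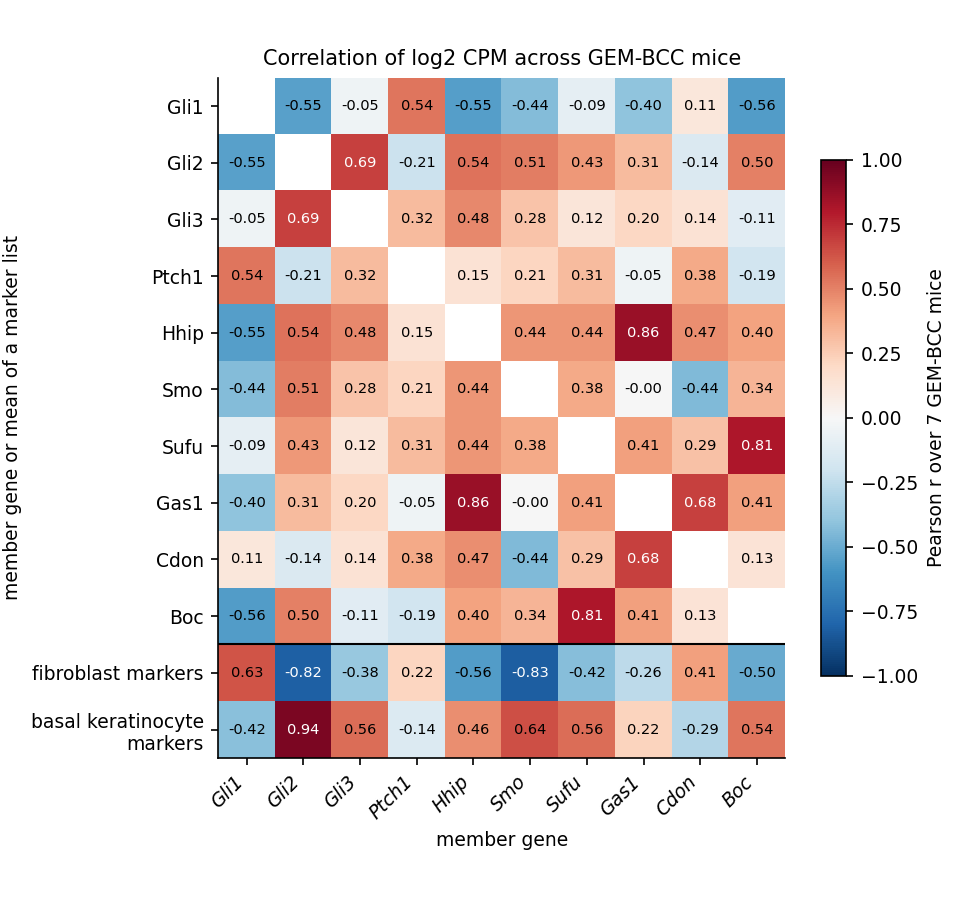
Pearson's r of log2 CPM over 7 GEM-BCC mice between the members, and between each member and the mean of the fibroblast and basal keratinocyte markers (bottom 2 lines); red is positive and blue negative. The highest value is that of Gli2 with the basal keratinocyte markers (0.94), and Gli1 with Ptch1 is 0.54.

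By likeness over the 9 GEM-BCC tumors among 10330 genes, which was examined for Gli1, Gli2, Ptch1 and Hhip, Gli2 had 41 genes at r of at least 0.9. Grk3 (r = 0.967), Vps13d (0.96), Clcn3 (0.957), Tex2 (0.946) and Mfsd9 (0.942) led. The genes nearest to Hhip were Irx1 (0.943), Bcar3 (0.924), Ctdspl (0.924), Ppat (0.922) and Frem2 (0.915), and 7 genes reached 0.9. None reached 0.9 with Gli1, whose nearest were Fam193b (0.887), Zfp354c (0.879), Slc1a1 (0.876), Ano1 (0.856) and Etnk1 (0.846), or with Ptch1, whose nearest were Ankrd24 (0.896), Pld1 (0.887), Gcnt1 (0.878), Xndc1 (0.856) and Uri1 (0.848). These values are descriptions over tumors that share libraries and base composition.

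Genes that lie next to a member on its chromosome served as a local background, taken as the 10 nearest tested genes on each side. Before removal of the GC trend, Ptch1, Hhip, Gas1 and Boc differed in sign from the median of their neighbours. The neighbours of Ptch1 had a median log2 fold change of 0.39, with 13 of 20 higher in Tp-BCC. For Hhip the neighbours had a median of -0.24 (8 of 20 higher), and for Gas1 -0.17 (7 of 20 higher). With the GC trend removed these medians were 0.16 and 0.05, of the same sign as Hhip (1.44) and Gas1 (0.84). Ptch1 (-0.84, neighbours 0.59) and Boc (0.07, neighbours -0.48) still differed in sign. So, on that scale, did Gli1, Gli3, Smo, Sufu and Cdon. The neighbours of Gli2 had a median of 0.04, against 1.28 for Gli2 itself. After removal of the GC trend these were 0.37 and 0.97, and the neighbours stood highest in TP4, at a median of 0.94 above the GEM-BCC mean. Those of Boc had a median of -0.71, with 3 of 20 higher, against 0.34 for Boc. After removal of the GC trend, the neighbours of Gli1 stood highest in GEM5, where their median was 0.76 above the GEM-BCC mean. On that scale GEM5 also had the highest Gli1 (839 CPM, against 814 CPM in GEM8). Before the removal its Gli1 was the second highest among the GEM-BCC tumors.

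Of the 92 other genes listed for the pathway, 88 were tested, 19 rose and 4 fell in Tp-BCC tumors (26.1% together, against 19.4% of all genes tested). The median log2 fold change of the 88 was 0.19. Of these 23 genes, 13 were past the test in every fit that left out 1 tumor, 6 were lost only without TP2 or TP4, and Evc2, Btrc, Prkaca and Gsk3a were lost in at least 9 of the 13. Of the 23, 19 also passed after removal of the GC trend and 9 without GEM1, TP2 and TP4.

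Ligand RNA was scarce. Shh had 0 to 13 counts in GEM-BCC libraries and 0 to 1 in Tp-BCC libraries, Ihh had 2 to 10 and 2 to 9, and both were under the filter, while Dhh had 9 to 35 and 11 to 24. These counts are not scaled for depth, which was lower in Tp-BCC libraries. In CPM, Dhh averaged 0.558 in GEM-BCC and 1.07 in Tp-BCC, a log2 fold change of 0.93 (SE 0.45, edgeR adjusted p = 0.152). Disp1, the transporter that releases the lipid-bearing ligand, rose 1.10 on the log2 scale (SE 0.23, edgeR adjusted p = 0.00465) and was the only gene of 6 in its group to pass. Hhat, the enzyme that attaches palmitate to the ligand, differed by 0.39 (adjusted p = 0.332).

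Among 10 further receptor and surface genes, Evc (0.86 on the log2 scale), Evc2 (0.77) and Iqce (0.64), which act together at the base of the primary cilium, rose, and Gpc3 fell. Gpc3, a glypican that competes with Patched1 for ligand, had 572 ± 296 CPM (SD, n = 9) in GEM-BCC and 154 ± 44.8 CPM (SD, n = 4) in Tp-BCC. Its log2 fold change was -1.89 (SE 0.42, edgeR adjusted p = 0.00618). Evc and Iqce no longer passed without TP2 or without TP4.

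Of 31 cytoplasmic regulators, 6 rose and 2 fell (25.8% together, against 19.4% of all genes tested). The kinases Dyrk2 (1.55 on the log2 scale) and Dyrk1b (1.37) rose with the arrestins Arrb1 (1.34) and Arrb2 (0.60), and with Prkaca (0.86) and Gsk3a (0.71), which encode kinases that phosphorylate Gli proteins. Spop (-1.09) and Btrc (-0.51), adaptors of ubiquitin ligases that act on Gli proteins, fell. Removal of the GC trend brought Btrc to 0.03 and left Spop at -0.88. Without GEM1, TP2 and TP4, however, Btrc (-0.59) and Spop (-0.68) were both past the test (edgeR adjusted p = 0.038 for each). The 2 ways of treating the trend thus gave different results for Btrc. Dyrk2, Dyrk1b and Arrb1 also passed without the 3 libraries, and Arrb2, Prkaca and Gsk3a did not. Arrb2 and Spop did not pass without TP2 or without TP4, and Prkaca and Gsk3a were 0.52 and 0.40 without TP4. The best-expressed genes of the group were Csnk1a1 (-0.44, edgeR adjusted p = 0.263) and Prkar1a (-0.10, adjusted p = 0.693).

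Of 11 nuclear partners tested, 0 passed with edgeR and 1 had an unadjusted p under 0.05. Limma after removal of the GC trend also put 0 past the test. Ski and Prkci were expressed most, with log2 fold changes of 0.32 and -0.70. Zic2 was under the filter.

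Of 30 genes listed as targets and tested, 9 rose and 1 fell, against 11.1% and 8.35% of all genes. Foxf1, which encodes a forkhead transcription factor, had 2 to 91 counts in GEM-BCC libraries and 213 to 415 in Tp-BCC libraries. It was 0.622 ± 0.795 CPM (SD, n = 9) and 19.8 ± 6.99 CPM (SD, n = 4), a log2 fold change of 4.97 (SE 0.70, edgeR adjusted p = 2.24e-04). Its relative Foxf2 (4.11), the growth factor gene Bmp4 (3.04), the growth factor receptor gene Pdgfra (2.14), the transcription factor genes Snai1 (1.80), Foxm1 (1.63) and Osr1 (1.17), and the cyclin genes Ccne1 (1.36) and Ccnd1 (0.86) also rose. Pdgfra is also 1 of the fibroblast markers used here. Ccnd1 did not pass without TP2, and Osr1 did not pass without TP2 or without TP4. Without GEM1, TP2 and TP4, Foxf1, Snai1, Pdgfra and Bmp4 remained past the test, and Foxf2 was not tested because too few tumors had enough counts. Foxm1 (adjusted p = 0.0571), Ccne1 (0.0871), Igf2 (0.0927), Ccnd1 (0.11) and Osr1 (0.284) did not pass in that fit. Igf2, an imprinted growth factor gene, fell by 6.50 on the log2 scale (SE 1.58, edgeR adjusted p = 0.0106), from 320 ± 380 CPM (SD, n = 9) to 3.55 ± 2.08 CPM (SD, n = 4), and its GEM-BCC libraries ranged from 53 to 34631 counts. Foxe1 had no value in Tp-BCC libraries and was not tested.

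Markers of other cell types were counted in the same way, against 11.1% of all genes higher and 8.35% lower. Adipocyte markers rose in 4 of the 4 tested, their summed level going from 0.457 to 3.38 CPM in GEM-BCC to 13.7 to 220 CPM in Tp-BCC. Endothelial markers rose in 4 of 8, with sums of 109 to 257 and 353 to 436 CPM. Of 14 fibroblast markers 5 rose and 2 fell, and their sums overlapped (14400 to 54800 and 19200 to 36100 CPM). The basal keratinocyte markers, which define the tumor cells, were present in every tumor (12500 to 18900 and 8680 to 21200 CPM), with 0 of 10 higher and 1 lower. After removal of the GC trend, limma put 3 lower, namely Krt5 (-0.56), Krt14 (-0.98) and Krt15 (-4.14), against 14.8% of all genes. Hair follicle and dermal papilla markers fell in 4 of 11, with sums of 1460 to 2560 and 1410 to 2000 CPM. Leukocyte markers fell in 1 of 6 (18.6 to 85.4 and 43.4 to 62.5 CPM), and 0 of 5 skeletal muscle markers (4.21 to 10.1 and 2.94 to 137 CPM) and 0 of 5 melanocyte and Schwann cell markers (7.17 to 52.4 and 12.9 to 19.2 CPM) passed. With the GC trend removed, 5 hair follicle and dermal papilla markers, 0 leukocyte markers and 1 skeletal muscle marker were lower. The adipocyte, endothelial, fibroblast, and melanocyte and Schwann cell counts stayed the same. What part these cells had in the values of Gli2, Gas1 and the target genes was not tested.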

How the data were processed

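Poly(A) RNA of 13 tumors (9 GEM-BCC, 4 Tp-BCC) was sequenced, 1 library per tumor. According to the study's methods and the labels, SOAPnuke removed low-quality reads, Bowtie2 2.3.4.3 mapped the rest to GRCm39 transcripts, and RSEM 1.3.1 estimated counts per gene. The authors deposited the resulting expected counts, neither rounded nor normalized, as 1 table for the series. Groups, mice and batches were taken from the labels. The members, the gene lists and the tests were chosen with earlier results of these data known. The counts over lists and the p-values of the ratios are therefore descriptions.

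Expected counts were rounded, and a gene entered the tests (14390 did) when every tumor had a value and 4 or more reached 10 counts, in R 4.3.3 with edgeR 4.0.16 (TMM normalization, robust quasi-likelihood F test, 2-sided, no covariate). Benjamini-Hochberg adjustment covered every gene tested, and a gene passed, rose or fell at an adjusted p under 0.05. SE is the size of the log2 fold change divided by the square root of F. CPM used TMM-scaled library sizes, and log2 CPM a prior count of 2. A level of 1 CPM stands for 14 to 35 counts, depending on the library. The GC trend was removed per library by a lowess curve (span 0.3) of the deviation of log2 CPM on the GC content of the longest coding transcript in GENCODE models (97.9% of tested genes matched), followed by limma 3.58.1. DESeq2 1.42.0 was an alternative, and further ones were other scaling factors and filters, sums per mouse, missing values set to 0, a block for the replicate number and leaving out each tumor. Limma without GC adjustment and a fit without GEM1, TP2 and TP4 were added after the data had been seen. Since the Tp-BCC tumors are 1 line, p-values measure the spread between these tumors only. Replicate numbers did not pair tumors. Named pathway genes are all those past the test and the 2 best-expressed of each group, 1 of which is not reported here. Likeness lists hold the 5 genes of highest r for each of 4 members. Genes were ordered on chromosomes by RefSeq of GRCm38.p6, and upstream sequences come from the same release. The fits were tested on simulated data.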

Additional observations from a re-analysis of the deposited data

Results flagged for a closer look

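3 values stood apart from the other tumors of their group by Dixon's test of the gap over the range, among 30 groups examined, of which chance alone would mark about 1 in 20. All concern TP4. Ptch1 was at 5.93 log2 CPM in TP4 and the nearest Tp-BCC tumor at 7.38 (gap over range 0.897). Gli3 was at 2.60 log2 CPM in TP4, with the nearest tumor at 4.55 (0.831). The log2 ratio of Hhip to Ptch1 was 2.33 in TP4 and 1.5 in the nearest tumor (0.836). TP4 is also 1 of the libraries whose values rise with GC content (rho = 0.607), and TP2, with a rho of 0.605, did not stand apart in these values.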

How the results depend on the processing

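The number of members past the test was 3 and stayed within 1.5 times of that under 9 other choices of scaling, filter and tool. It was 5 after removal of the GC trend, 0 without GEM1, TP2 and TP4, and 1 to 4 when single tumors were left out, the lowest being without TP2. For the other pathway genes the count of 23 became 13 without the 3 libraries and 14 to 25 when single tumors were left out (14 without TP2, 15 without TP4). The log2 fold change of Smo reversed to -0.22 after removal of the GC trend, -0.36 without the 3 libraries, -0.06 without TP2 and -0.07 without TP4. It was between -0.07 and 0.25 over all single tumors left out. Of the 5 ratios, 0 passed without the 3 libraries, with differences of 0.83 for Gli2 to Gli3, 0.77 for Gli1 to Ptch1, 1.61 for Hhip to Ptch1 and -0.16 for Ptch1 to Smo, and 45 splits allow no p under 0.0222. Ptch1 to Smo also missed the threshold with means per mouse (-0.95) and after removal of the GC trend (-0.62), and ranged from -1.28 to -0.48 with single tumors left out. Of the relations with marker lists, 1 passed with 9 tumors as samples and 1 after removal of the GC trend. The cause of these changes was not tested. Of all genes past the test, 57.0% rose, against 50.3% with DESeq2, which called 3743 genes against 2792, 50.5% of 4219 after removal of the GC trend, and 57.5% of 1573 without the 3 libraries.

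Tumors of the same replicate number did not deviate together (correlations -0.381, -0.122, -0.101 and -0.179), and none correlated best with its own number. With a replicate block in the fit, which keeps 4 numbers present in both models, 0 members, 2 pathway genes and 178 genes in all passed. Gli3 and Cdon rested on 84 and 98 counts in TP4, the lowest of any member, and 4 tumors of 1 line limit every comparison.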
